A study of Mus musculus with 24 samples.

Results

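Cecum labelled Cdx2-/-, from mice with a conditional allele of the homeobox gene Cdx2, was set against ileum of Apc-heterozygous mice, to ask how far the mutant large-bowel segment carries the transcript profile of the neighbouring small bowel. The comparison takes in 9 of the 24 RNA-seq libraries of the series, which are 6 libraries of Cdx2-/- cecum and 3 of Apc+/- ileum, chosen by the sample codes in the deposited labels. The Cdx2-/- mice were Cdx2f/f::AhCreERT animals given tamoxifen and beta-naphthoflavone, so recombination depends on a CreERT driven by the Cyp1a1 promoter. Their libraries carry 2 kinds of code and are called set 1 (replicates 1 to 3) and set 2 (replicates 4 to 6) here. The Apc+/- mice were untreated. The genotype entry of ileum replicate 2 reads ApcD14/+, whereas that of ileum replicates 1 and 3 names Cdx2f/f::AhCreERT::ApcD14/+ while their description calls the Cdx2 allele non-floxed, and the labels do not settle which holds. Tissue, Cdx2 genotype, Apc genotype and drug treatment all differ between the groups and cannot be told apart. Nothing in the labels says whether the ileum was taken from normal mucosa or from a lesion. Library depth ran from 41967173 to 87975179 reads assigned to genes.

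The ileum and the cecum are neighbouring segments with different tasks. Ileal enterocytes carry a tall brush border of digestive enzymes and nutrient and bile acid carriers, and the ileal crypt base holds Paneth cells, whereas the cecal and colonic epithelium absorbs salt and water and lacks both features. Cdx2 is the homeobox factor that sets intestinal against gastric identity during development, Hox genes mark position along the gut, and Apc restrains Wnt signalling in the crypt.

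2 further groups of the series were used to define ileum-enriched and cecum-enriched genes, so that no library of the comparison chose them. A gene was called ileum-enriched when Cdx2-/-;Apc+/- ileum (the same alleles combined with the same 2 drugs, 3 libraries) exceeded wild-type cecum (3 libraries) by a log2 fold change of at least 2 with an adjusted p under 0.05, and cecum-enriched when it was lower by as much. These 2 groups differ in Cdx2 genotype, Apc genotype and drug treatment as well as in segment, and the classes cannot tell these apart. The Cdx2-/- cecum shares the Cdx2 genotype and the drugs with the ileum that chose the genes. The Apc+/- ileum shares its Apc allele. That contrast called 29.3% of all tested genes higher and 25.3% lower, and the rule admitted 2283 ileum-enriched and 1131 cecum-enriched genes. Lfng lay just inside the ileum-enriched limit at a log2 fold change of 2.0006 and Gdf11 just outside it at 1.9998. All log2 fold changes below are Cdx2-/- cecum over Apc+/- ileum unless another pair is named, averaged over the 2 sets. All adjusted p-values come from edgeR's quasi-likelihood test with Benjamini-Hochberg adjustment over 20502 tested genes. The labels do not say that replicates are separate animals, so the p-values measure the spread between these libraries.

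Sucrase-isomaltase (Sis) and lactase (Lct), the brush border disaccharidases that split sucrose and lactose, are textbook markers of small-bowel enterocytes, and CDX2 is known to bind their promoters. Their promoter windows are shown because both genes were among the ileal transcripts that the Cdx2-/- cecum lacked. The genes lie at chr3:72888557-72967863 and chr1:128284756-128328318. The windows hold the 250 bases before and the 50 after each gene's start (RefSeq, GRCm38.p6, minus strand for both), at chr3:72967814-72968113 for Sis and chr1:128328269-128328568 for Lct. Capitals mark the letters TTTAT or their reverse complement ATAAA, so both strands were searched. Binding sites with other letters would be unmarked, and binding at the marked letters was not tested.
Sis: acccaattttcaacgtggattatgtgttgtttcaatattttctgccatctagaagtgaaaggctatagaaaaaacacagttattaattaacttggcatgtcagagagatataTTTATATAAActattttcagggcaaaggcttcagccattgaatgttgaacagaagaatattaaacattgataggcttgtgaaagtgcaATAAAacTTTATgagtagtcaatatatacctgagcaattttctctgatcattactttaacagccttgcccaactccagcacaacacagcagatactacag
Lct: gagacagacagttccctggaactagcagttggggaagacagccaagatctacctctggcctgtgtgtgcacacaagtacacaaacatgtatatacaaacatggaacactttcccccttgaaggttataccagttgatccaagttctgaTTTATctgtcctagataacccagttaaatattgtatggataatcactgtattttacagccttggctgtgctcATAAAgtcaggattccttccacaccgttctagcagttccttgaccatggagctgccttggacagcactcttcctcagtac
The Sis window holds 4 matches, the upstream pair of which abut, and the Lct window holds 2. At least 1 match is present in 13143 of 32851 promoter windows (40%) and at least 2 in 5364 (16.3%), so such letters are common and a match is a description only.

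Cdx2 itself was not absent from the libraries labelled Cdx2-/-. Its level in CPM, the gene's count scaled to library size, ran from 130 to 349 with a median of 166 in the 6 Cdx2-/- libraries, against 90.1, 63.3 and 112 in the Apc+/- ileum. Every Cdx2-/- library lay above every ileum library, and below the wild-type cecum, which averaged 565 ± 137 CPM (SD, n = 3). The log2 fold change over the ileum was 1.23 (SE 0.43, edgeR adjusted p = 0.0338), and leaving out replicate 1, replicate 6 or any 1 of the ileum libraries ended the call (edgeR adjusted p between 0.0517 and 0.128). Counts are summed over the whole gene and the labels do not say which exons the deletion removes, so they do not measure the share of recombined alleles. Cdx1, the related homeobox gene, ran from 11.6 to 68.7 CPM in Cdx2-/- cecum and was at 35.2, 61.6 and 34.3 CPM in Apc+/- ileum, and the groups overlapped (log2 fold change -0.60, interval -1.97 to 0.76). Apc, which is heterozygous in the ileum group alone, ran from 99 to 156 CPM in Cdx2-/- cecum and was at 122, 218 and 120 CPM in Apc+/- ileum (log2 fold change -0.33, SE 0.15, edgeR adjusted p = 0.106). It was called lower without ileum replicate 1 (edgeR adjusted p = 0.0473), without ileum replicate 3 (edgeR adjusted p = 0.04) and with set 1 alone (edgeR adjusted p = 0.0292). Without ileum replicate 2, the library at 218 CPM, its log2 fold change was 0.02 (edgeR adjusted p = 0.938). Cyp1a1, whose promoter drives the CreERT, did not exceed 0.0762 CPM in any of the 9 libraries and was not tested.

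Some libraries stood apart. Set 1 replicates 2 and 3 differed far less from each other (chi-square per degree of freedom 7.03 over genes) than any other pair within these groups (60.7 to 344), yet by more than sampling noise, and they had the lowest Hoxa10, Hoxd9 and Hoxd10 levels of the 6. Ileum replicate 1 decided the calls of the B and plasma cell genes, of which 6 of 12 were lower in Cdx2-/- cecum with it and 0 without it. Set 1 was Xist-positive and Ddx3y-negative in 3 of 3 libraries, and set 2 and the ileum were Ddx3y-positive in 3 of 3 each, so sex differs within the Cdx2-/- group. Set 2 differed from set 1 at 2148 of 20502 genes (10.5%). Many results that rest on these libraries are therefore given with and without them, though not every list count is.

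Across all genes, 3230 were higher in Cdx2-/- cecum (15.8% of those tested) and 3419 lower (16.7%), with a median log2 fold change of 0.00. These shares are the background for every count of list members in this comparison. Without set 1 replicates 2 and 3, 2429 were higher and 2474 lower. The ileum-enriched genes split unevenly. Of the 2283, 926 were called lower in Cdx2-/- cecum and 288 higher, with a median log2 fold change of -0.74, whereas 78 of the 1131 cecum-enriched genes were lower and 275 higher, with a median of 0.34. Both gene sets differed from the ileal level in opposite directions.

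Since a p-value that misses a threshold does not show equal levels, each gene was also placed by its 95% interval. A gene was counted as reached when the interval of its log2 fold change lay within -1 to 1, as lacked when it was called lower with a log2 fold change of -1 or less, as exceeded when it was called higher with 1 or more, and otherwise as unresolved. Of the ileum-enriched genes, 862 (37.8%) were lacked, 185 (8.1%) reached, 264 (11.6%) exceeded and 972 (42.6%) unresolved. The same shares over all tested genes were 9.55%, 47.7%, 7.39% and 35.3%. A gene named below as reaching the ileal level matched Apc+/- ileum within these bounds. It need not be ileum-enriched or differ between the segments. The reached count is the least stable of these, at 117 without set 1 replicates 2 and 3 and 122 without ileum replicate 1. Of the cecum-enriched genes, 71 (6.28%) were lacked, 202 (17.9%) reached, 207 (18.3%) exceeded and 651 (57.6%) unresolved, and the lacked count stood at 119 without replicate 1, at 47 without ileum replicate 3 and at 27 without set 1 replicates 2 and 3. Leaving out replicate 2 of the Cdx2-/-;Apc+/- ileum, a library high in villus genes that helps to choose the genes, gave 187 lacked and 373 reached among 1611 cecum-enriched genes.

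**Figure D1:**
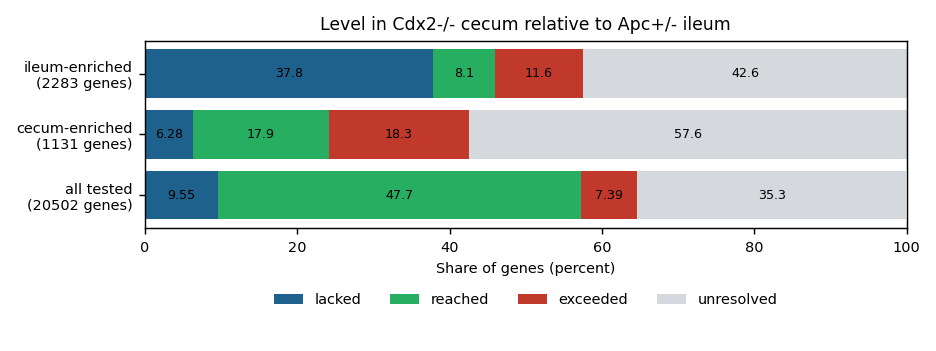
Share of genes (percent, horizontal axis) lacked, reached, exceeded or unresolved in Cdx2-/- cecum relative to Apc+/- ileum, for 2283 ileum-enriched, 1131 cecum-enriched and all 20502 tested genes (rows). The lacked share is 37.8% among ileum-enriched genes, 6.28% among cecum-enriched genes and 9.55% among all tested genes.

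An ileal index, the mean log2 CPM of the ileum-enriched genes minus that of the cecum-enriched genes, placed each library on a scale from wild-type cecum to Cdx2-/-;Apc+/- ileum. It was -1.67, -0.65, -0.66, -0.73, -0.83 and -1.04 in Cdx2-/- cecum replicates 1 to 6 and 0.40, 0.01 and 0.28 in the Apc+/- ileum. All 6 Cdx2-/- libraries fell below all 3 ileum libraries and far above the wild-type cecum at -5.73 ± 0.52 (SD, n = 3), which helped to choose the genes. The mean was -0.93 ± 0.39 in Cdx2-/- cecum (SD, n = 6) and 0.23 ± 0.20 in Apc+/- ileum (SD, n = 3). Cdx2+/- cecum, which chose no genes, stood at -2.33 ± 0.10 (SD, n = 3) and the 3 wild-type stomach libraries between -2.12 and -1.79, so an index above that of wild-type cecum is not particular to small bowel. The index moved through both of its parts. Ileum-enriched genes averaged 0.49 to 0.88 log2 CPM in Cdx2-/- cecum, against 1.43 to 1.57 in Apc+/- ileum, and cecum-enriched genes averaged 1.35 to 2.16 in Cdx2-/- cecum, against 1.17 to 1.43 in Apc+/- ileum. Replicate 1 had the highest cecum-enriched mean of the 6 and the lowest index.

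**Figure D2:**
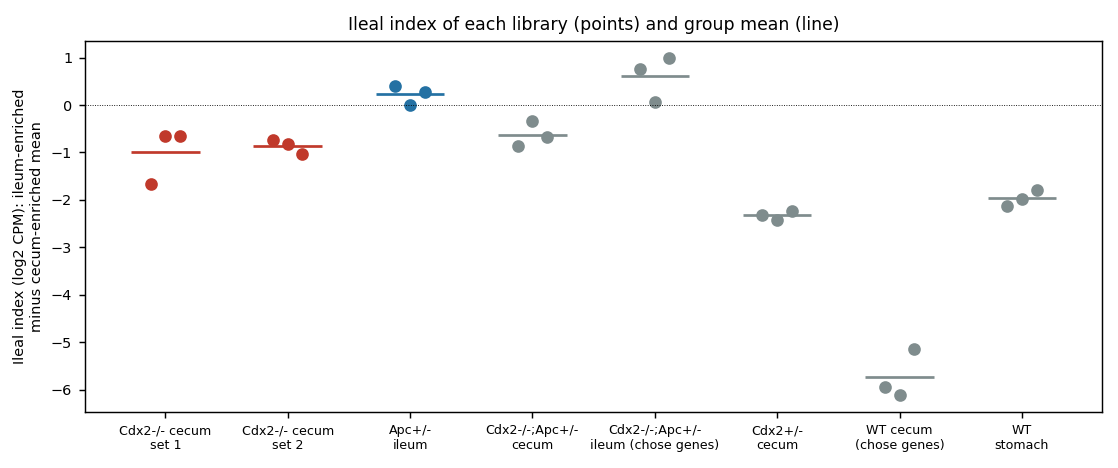
Ileal index (log2 CPM units, vertical axis) of each library (points) with the group mean (line), by group along the horizontal axis. The 6 Cdx2-/- cecum libraries lie between -1.67 and -0.65, below the 3 Apc+/- ileum libraries at 0.01 to 0.40 and above the wild-type cecum near -5.73.

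Over all tested genes, the distance of a library to a group was the median of its root mean square differences in log2 CPM from the single libraries of that group. By this measure the Cdx2-/- libraries lay 1.24 to 1.35 from Apc+/- ileum, 1.48 to 1.78 from wild-type cecum, 1.54 to 1.75 from wild-type stomach and 1.16 to 1.45 from Cdx2+/- cecum. Nearest of the other groups was Cdx2-/-;Apc+/- cecum, at 0.71 to 1.04. The distances to Apc+/- ileum and to Cdx2+/- cecum overlap, so the whole profile does not place the mutant cecum nearer to ileum than to heterozygous cecum.

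Digestive enzymes of the brush border were widely low in Cdx2-/- cecum, with 16 of 19 tested members lower and none higher (median log2 fold change -3.63, against 0.00 over all genes; 16.7% of all tested genes were lower). Without set 1 replicates 2 and 3, 11 were lower. Sis, whose promoter is printed above, ran from 0.0445 to 55.7 CPM with a median of 2.9 in Cdx2-/- cecum and was at 327, 556 and 485 CPM in Apc+/- ileum. Replicate 4 alone supplied the 55.7 CPM, the next highest library was at 5.78, and no Cdx2-/- library came near the ileum. The log2 fold change was -5.75 (SE 1.29, edgeR adjusted p = 0.00214), -9.23 without replicate 4 and -6.86 without set 1 replicates 2 and 3. Lct was at 0.0544 to 0.184 CPM (median 0.133) in Cdx2-/- cecum, against 2.23, 0.538 and 59 CPM in Apc+/- ileum. The groups did not overlap, but ileum replicate 3 alone held most of the ileal reads, and the log2 fold change of -7.39 (SE 1.06, edgeR adjusted p = 3.88e-05) was -3.49 without it. Anpep, aminopeptidase N, ran from 34.5 to 278 CPM (median 65.9) in Cdx2-/- cecum and was at 965, 868 and 1285 CPM in Apc+/- ileum. Replicate 4 was again the highest, and the log2 fold change of -3.63 (SE 0.75, edgeR adjusted p = 0.00107) was -4.25 without it. The mean in wild-type cecum was 19.2 CPM, so Anpep stood above the wild-type cecum and still below the ileum. Mgam, maltase-glucoamylase, ran from 352 to 604 CPM in Cdx2-/- cecum and was at 689, 1356 and 895 CPM in Apc+/- ileum (log2 fold change -0.94, edgeR adjusted p = 0.17), without overlap and without a call, and was called lower when only the 9 compared libraries were fitted (edgeR adjusted p = 0.0166).

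Nutrient carriers followed, with 17 of 22 tested members lower and none higher (median -2.66), and 14 lower without set 1 replicates 2 and 3. Slc5a1, the sodium-glucose cotransporter SGLT1, ran from 12.1 to 58 CPM (median 17.4) in Cdx2-/- cecum and was at 197, 174 and 439 CPM in Apc+/- ileum. Groups were apart and replicate 4 was the highest of the mutant libraries (log2 fold change -3.66, SE 0.63, edgeR adjusted p = 2.04e-04). Wild-type cecum averaged 89.2 ± 6.27 CPM (SD, n = 3), above every Cdx2-/- library. The fructose carrier gene Slc2a5 ran from 0.0317 to 0.941 CPM (median 0.214) in Cdx2-/- cecum and was at 9.67, 7.43 and 31 CPM in Apc+/- ileum, again without overlap. Its log2 fold change was -5.78 (SE 0.76, edgeR adjusted p = 1.54e-05) and -4.87 without ileum replicate 3. Slc7a8, a carrier of neutral amino acids, was lower by a log2 fold change of -2.44 (SE 0.29, edgeR adjusted p = 5.60e-06). By contrast the proton-coupled amino acid carrier Slc36a1 reached the ileal level, at 36.8 to 53.9 CPM in Cdx2-/- cecum and 39.2, 38 and 47.5 CPM in Apc+/- ileum (log2 fold change 0.02, interval -0.22 to 0.25).

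Of 24 lipid absorption genes, 12 were lower and 2 higher (median -1.54), or 9 lower and 0 higher without set 1 replicates 2 and 3. Mttp, the transfer protein that loads lipid onto apolipoprotein B, ran from 7.46 to 64.3 CPM (median 14.4) in Cdx2-/- cecum and was at 223, 120 and 327 CPM in Apc+/- ileum. All Cdx2-/- libraries lay below the ileum and above the wild-type cecum mean of 2.16 CPM (log2 fold change -3.45, SE 0.63, edgeR adjusted p = 3.52e-04). Abcg8, a subunit of the sterol exporter, ran from 0.225 to 4.07 CPM (median 1.71) in Cdx2-/- cecum and was at 38.8, 28.7 and 51.9 CPM in Apc+/- ileum, with replicate 5 the lowest (log2 fold change -4.25, SE 0.69, edgeR adjusted p = 1.24e-04). Apoa4, an apolipoprotein of chylomicrons, ran from 0.143 to 4.32 CPM in Cdx2-/- cecum and was at 112, 52 and 396 CPM in Apc+/- ileum. The groups were apart, with a log2 fold change of -7.38 (SE 1.07, edgeR adjusted p = 4.04e-05) that was -8.7 without replicate 4, -6.19 without ileum replicate 3 and -8.04 without set 1 replicates 2 and 3. The fatty acid activating enzyme gene Acsl5 (interval -0.99 to 0.19) and the lipid droplet gene Plin2 (interval -0.49 to 0.69) reached the ileal level.

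Bile acid recovery, the task particular to terminal ileum, was low at its carriers, with 5 of 11 tested members lower and 1 higher (median -2.94). With set 2 alone 3 were lower and 1 higher. The carrier gene Slc51b had a log2 fold change of -2.94 and was not called with set 2 alone (-2.43, edgeR adjusted p = 0.109). Slc51a had -3.56, or -3.19 without set 1 replicates 2 and 3. Slc10a2, the apical bile acid importer, ran from 2.09 to 13.8 CPM (median 4.05) in Cdx2-/- cecum and was at 36.4, 92 and 18 CPM in Apc+/- ileum. The groups were apart by a narrow margin, and the call (log2 fold change -3.21, SE 0.85, edgeR adjusted p = 0.00701) was lost without ileum replicate 2 (edgeR adjusted p = 0.0593) and without set 1 replicates 2 and 3 (edgeR adjusted p = 0.0739), and set 2 alone gave no call (edgeR adjusted p = 0.0598). The wild-type cecum itself averaged 56.2 ± 20.3 CPM of Slc10a2 (SD, n = 3). Fabp6, the cytosolic bile acid binding protein, ran from 0.961 to 60.9 CPM in Cdx2-/- cecum and was at 241, 244 and 78.4 CPM in Apc+/- ileum, without a call (log2 fold change -3.16, edgeR adjusted p = 0.0725) until replicate 4 was left out (edgeR adjusted p = 0.0115). Abcc2, an apical exporter of conjugates, ran from 0.102 to 0.845 CPM in Cdx2-/- cecum and was at 19.3, 22.2 and 53.7 CPM in Apc+/- ileum. Its log2 fold change was -6.04 (SE 0.78, edgeR adjusted p = 1.36e-05), or -5.43 without ileum replicate 3. Its basolateral relative Abcc3 went the other way, at 274 to 726 CPM (median 479) in Cdx2-/- cecum and 63.7, 63.8 and 64.9 CPM in Apc+/- ileum. No library overlapped (log2 fold change 2.96, SE 0.30, edgeR adjusted p = 1.20e-06), and wild-type cecum was higher still at 991 ± 245 CPM (SD, n = 3). Without set 1 replicates 2 and 3 the group held 3 lower and 1 higher.

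**Figure D3:**
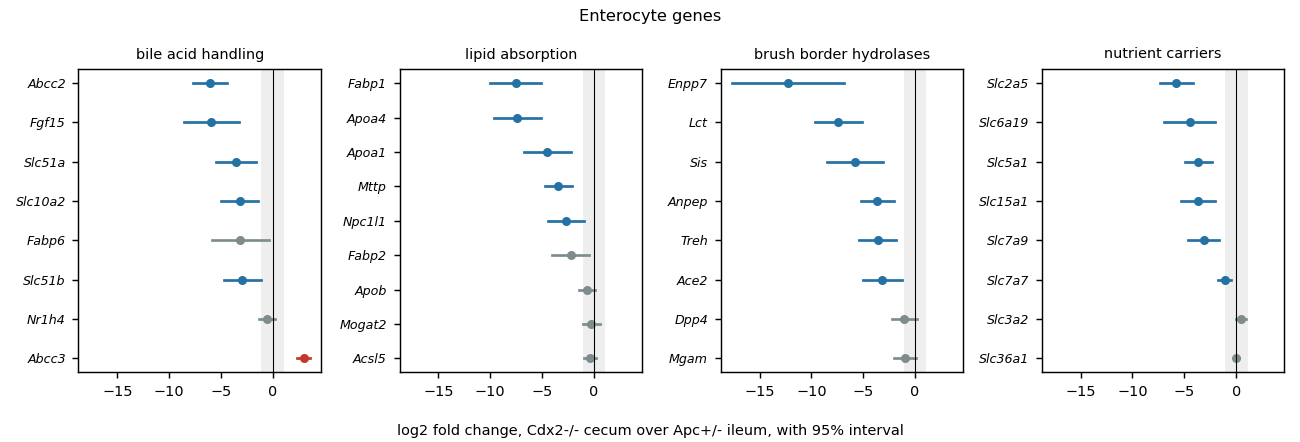
Log2 fold change of Cdx2-/- cecum over Apc+/- ileum (horizontal axis) with its 95% interval for enterocyte genes in 4 functional groups. Blue is called lower, red called higher, grey not called, and the shaded band spans -1 to 1. Carriers and enzymes lie mostly left of the band, Slc36a1 sits inside it with an interval of -0.22 to 0.25, and Abcc3 lies right of it at 2.96.

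The structural core of the microvillus had 9 of 16 tested members lower and 1 higher (median -1.18). That count fell to 3 without set 1 replicates 2 and 3 and to 4 without ileum replicate 1. Ush1c, a scaffold that links neighbouring microvilli, ran from 8.94 to 39.6 CPM (median 17.2) in Cdx2-/- cecum and was at 100, 91.7 and 120 CPM in Apc+/- ileum, with no overlap (log2 fold change -2.46, SE 0.55, edgeR adjusted p = 0.00194). Its motor partner Myo7b was lower as well (log2 fold change -2.27, SE 0.53, edgeR adjusted p = 0.00271). Vil1, the actin bundler villin, ran from 323 to 664 CPM in Cdx2-/- cecum and was at 915, 844 and 1133 CPM in Apc+/- ileum. Its groups did not overlap, but the call (log2 fold change -1.14, edgeR adjusted p = 0.0298) was lost without set 1 replicates 2 and 3 (edgeR adjusted p = 0.176) and without 6 of the 9 libraries in turn. Among 12 vitamin B12 and iron genes 2 were lower and 2 higher, or 1 and 1 without set 1 replicates 2 and 3. These counts are near the shares of all tested genes (16.7% lower and 15.8% higher), so the list as a whole did not stand out. The folate carrier gene Slc46a1 was lower (log2 fold change -1.68, SE 0.33, edgeR adjusted p = 7.99e-04), and Hfe, which controls iron uptake, was higher (log2 fold change 1.10, SE 0.12, edgeR adjusted p = 1.83e-06). Pan-epithelial markers were not low, with 1 of 10 lower and 1 higher, a median of -0.05, and a summed level of 7050 to 16546 CPM in Cdx2-/- cecum against 8605 to 12647 CPM in Apc+/- ileum. In bulk tissue, fewer enterocytes and less RNA per enterocyte cannot be told apart.

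Transcription factors of the intestinal epithelium had 6 of 20 lower and 1 higher (median -0.38), or 2 lower and 1 higher without set 1 replicates 2 and 3. Hnf4g, a nuclear receptor of mature enterocytes, was at 6.87 to 15 CPM (median 7.2) in Cdx2-/- cecum and 65.1, 72.6 and 73.8 CPM in Apc+/- ileum. The mutant libraries lay well below both the ileum and the wild-type cecum, which averaged 53.6 ± 20.5 CPM (SD, n = 3), and replicate 4 was the highest of them (log2 fold change -3.07, SE 0.40, edgeR adjusted p = 1.42e-05). Gata4, which in the mouse gut marks the proximal small bowel, did not exceed 0.467 CPM in Cdx2-/- cecum and was at 14, 1.19 and 43.1 CPM in Apc+/- ileum, with a log2 fold change of -6.23 (SE 1.07, edgeR adjusted p = 2.17e-04) that was -4.87 without ileum replicate 3. In contrast Klf5 (interval -0.35 to 0.27), Gata6 (-0.52 to 0.10) and Elf3 (-0.58 to 0.58) reached the ileal level, as did 47.7% of all tested genes. For Hnf4a the Cdx2-/- libraries ran from 304 to 426 CPM and the Apc+/- ileum was at 451, 534 and 542 CPM, apart but without a call (log2 fold change -0.51, edgeR adjusted p = 0.177; 0.0195 when only the 9 compared libraries were fitted).

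Positional Hox genes differed by cluster and, within HoxA, by position. Of 31 tested, 17 were higher and 7 lower (median 1.87), or 16 and 8 without set 1 replicates 2 and 3. With all libraries the lower genes lie in the anterior part of the HoxA cluster, while Hoxa10, Hoxa11 and Hoxa13 at its posterior end were higher. In the HoxC cluster Hoxc10 was called higher, with a log2 fold change of 7.01, or 7.86 with set 1 alone and 6.16 with set 2 alone. Without set 1 replicates 2 and 3, HoxC genes entered the lower count, among them Hoxc4 (log2 fold change -1.64, edgeR adjusted p = 0.0301) and Hoxc8 (log2 fold change -2.87, edgeR adjusted p = 0.0408), and Hoxa7 left it (edgeR adjusted p = 0.067). The Hoxa13 call (edgeR adjusted p = 0.017) was lost without ileum replicate 1 (edgeR adjusted p = 0.0505) or ileum replicate 3 (edgeR adjusted p = 0.0545). Hoxa11 had a log2 fold change of 7.07, which was 5.27 without replicate 1, 9.61 without ileum replicate 3 and 7.81 without set 1 replicates 2 and 3. Hoxa5 was at 1.06 to 1.75 CPM (median 1.34) in Cdx2-/- cecum and 4.17, 6.07 and 12 CPM in Apc+/- ileum, with the groups apart (log2 fold change -2.43, SE 0.35, edgeR adjusted p = 3.97e-05). Hoxa10 ran from 0.554 to 7.47 CPM (median 5.15) in Cdx2-/- cecum and was at 0.034, 0.483 and 0.0463 CPM in Apc+/- ileum. Set 1 replicates 2 and 3, at 0.554 and 0.672 CPM, came close to ileum replicate 2. The log2 fold change of Hoxa10 was 4.41 (SE 0.94, edgeR adjusted p = 0.00138), 3.39 without replicate 1, 6.51 without ileum replicate 2 and 5.07 without set 1 replicates 2 and 3.

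In the other clusters Hoxd9 was at 1.38 to 5.82 CPM (median 3.84) in Cdx2-/- cecum and 0.119, 0.149 and 0.17 CPM in Apc+/- ileum. Its groups were far apart, and wild-type cecum averaged 5.33 ± 1.29 CPM (SD, n = 3), within the range of the higher mutant libraries (log2 fold change 4.59, SE 0.65, edgeR adjusted p = 3.39e-05). Hoxb4 was at 16.2 to 34.7 CPM in Cdx2-/- cecum and 7.9, 7.98 and 2.15 CPM in Apc+/- ileum, again without overlap (log2 fold change 1.97, SE 0.48, edgeR adjusted p = 0.004). Hoxd8 was higher by 2.00 (SE 0.37, edgeR adjusted p = 3.89e-04). In a pair that shares no library with these, Cdx2-/-;Apc+/- cecum over Cdx2-/-;Apc+/- ileum, Hoxd9 was at 5.15, 4.97 and 5.68 CPM in cecum and 1.03, 0.446 and 0.0736 CPM in ileum (log2 fold change 3.37, edgeR adjusted p = 0.00184). There 7 Hox genes were higher and 4 lower, over a background of 6.6% and 9.59% of all genes.

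**Figure D4:**
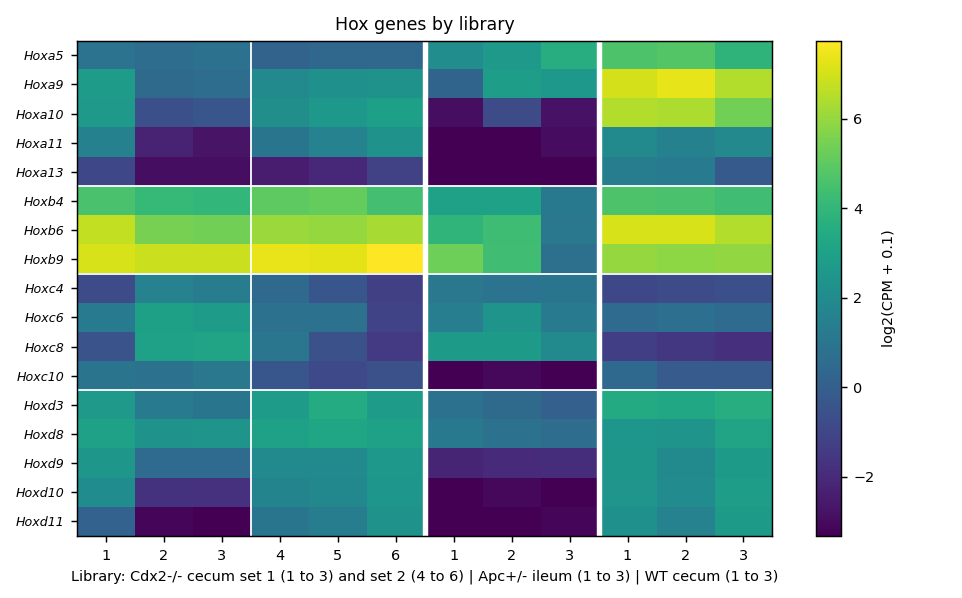
Level of 17 Hox genes (rows, ordered by cluster) in each library (columns, Cdx2-/- cecum, then Apc+/- ileum, then wild-type cecum) as log2(CPM + 0.1), by colour. Dark is low. Hoxd9, Hoxd10 and Hoxa10 are lower in each Apc+/- ileum library than in any Cdx2-/- library, and within Cdx2-/- cecum replicates 2 and 3 are the lowest for Hoxa10 and Hoxa11.

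Genes of the large bowel differed by list. Among 20 colonocyte transport genes 9 were higher and 2 lower (median 0.83), or 8 and 1 without set 1 replicates 2 and 3, and among 18 other colonic epithelial genes 4 were higher and 0 lower (median 0.51), or 2 and 0 without ileum replicate 1, where 15.8% of all tested genes were higher and 16.7% lower. Both lists stood far below wild-type cecum. Over wild-type cecum the 20 transport genes had a median log2 fold change of -3.50, against 0.04 over all genes, with members called in both directions. Their summed level was 1663 to 3695 CPM in Cdx2-/- cecum and 25031 to 43240 CPM in wild-type cecum. The 18 others had a median of -3.31 over wild-type cecum, again with calls in both directions. Car2, carbonic anhydrase of the absorptive large bowel, was at 306 to 1090 CPM (median 561) in Cdx2-/- cecum and 5.84, 16.7 and 13.3 CPM in Apc+/- ileum. The groups were far apart and replicate 6 was the highest (log2 fold change 5.69, SE 0.75, edgeR adjusted p = 1.55e-05). Car2 overlapped wild-type cecum, which averaged 1308 ± 259 CPM (SD, n = 3). The sodium channel subunit gene Scnn1a was higher by 1.98 (SE 0.34, edgeR adjusted p = 2.07e-04). Against this direction went Slc9a3, the apical sodium-proton exchanger NHE3, which ran from 0.118 to 11.4 CPM (median 2.08) in Cdx2-/- cecum and was at 234, 300 and 202 CPM in Apc+/- ileum. No Cdx2-/- library approached the ileum or the wild-type cecum mean of 70.9 CPM, and the log2 fold change was -6.78 (SE 0.85, edgeR adjusted p = 9.28e-06), or -7.49 without replicate 1, -8.60 with set 1 alone and -4.96 with set 2 alone.

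Wnt feedback and target genes, which are known to be raised in Apc-mutant adenomas, were low in Cdx2-/- cecum relative to Apc+/- ileum. Of 18 tested, 14 were lower and none higher (median -2.78), with the same count without set 1 replicates 2 and 3 and without ileum replicate 1. Over wild-type cecum, by contrast, the median log2 fold change of the 18 was 0.96, against 0.04 over all genes. Their summed level was 859 to 1429 CPM in Cdx2-/- cecum, 211 to 366 CPM in wild-type cecum and 2572 to 2851 CPM in Apc+/- ileum. Notum, a secreted enzyme that inactivates Wnt ligands, was at 0.222 to 1.4 CPM (median 0.726) in Cdx2-/- cecum and 217, 191 and 163 CPM in Apc+/- ileum. The groups were far apart and wild-type cecum averaged 0.345 CPM (log2 fold change -7.98, SE 0.76, edgeR adjusted p = 6.64e-07). The counting strand is not given, so reads of Notum and of its opposite-strand neighbour Notumos cannot be told apart. The secreted inhibitor gene Wif1 was at 1.27 to 4.44 CPM in Cdx2-/- cecum and 182, 159 and 111 CPM in Apc+/- ileum, and the intracellular inhibitor gene Nkd1 at 8.34 to 14.9 CPM in Cdx2-/- cecum and 456, 363 and 409 CPM in Apc+/- ileum. Neither overlapped (log2 fold changes -5.97, SE 0.61, and -5.18, SE 0.48, edgeR adjusted p = 1.21e-06 and 4.89e-07).

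Lgr5, the receptor that marks crypt base stem cells, was at 3.78 to 10.2 CPM (median 4.96) in Cdx2-/- cecum and 203, 332 and 125 CPM in Apc+/- ileum, with the groups apart (log2 fold change -5.25, SE 0.57, edgeR adjusted p = 1.88e-06). Lef1, a partner of beta-catenin on DNA, was at 0.689 to 1.49 CPM in Cdx2-/- cecum and 26.5, 20.9 and 21.6 CPM in Apc+/- ileum (log2 fold change -4.56, SE 0.27, edgeR adjusted p = 5.09e-09). Axin2, the scaffold of the destruction complex, was lower by -3.88 (SE 0.34, edgeR adjusted p = 2.30e-07), and Rnf43, a ligase that removes Wnt receptors, by -2.23 (SE 0.16, edgeR adjusted p = 3.68e-08). Not every member of the list was low. Ccnd1 (interval -0.60 to 0.28), Sox9 (-0.90 to 0.05) and Ephb2 (-0.69 to 0.18) reached the ileal level, and Cd44 was not called (log2 fold change 0.68, edgeR adjusted p = 0.0718), though it was called higher without replicate 6 (edgeR adjusted p = 0.04) and when only the 9 compared libraries were fitted (edgeR adjusted p = 0.0301). With set 2 alone Sox9 was called lower (log2 fold change -0.76, edgeR adjusted p = 0.0451). In Cdx2-/-;Apc+/- tissue, where both segments carry the Apc allele, 14 of the 18 were also lower in cecum than in ileum (median -2.06). In that pair 9.59% of all tested genes were lower. Notum was at 0.532, 5.02 and 25.6 CPM in that cecum and 163, 194 and 489 CPM in that ileum (log2 fold change -4.76, edgeR adjusted p = 0.00191).

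The wider stem cell list, which overlaps the Wnt list, had 10 of 16 members lower and 2 higher (median -1.46), or 10 and 1 without set 1 replicates 2 and 3. Over wild-type cecum the median log2 fold change of the 16 was 0.74, against 0.04 over all genes, with members called in both directions. Tnfrsf19, a stem cell receptor, was at 1.58 to 2.74 CPM in Cdx2-/- cecum and 109, 292 and 108 CPM in Apc+/- ileum, far apart (log2 fold change -6.24, SE 0.43, edgeR adjusted p = 1.79e-08), or -5.59 without ileum replicate 2. Olfm4, a secreted glycoprotein used as a crypt base marker, was the exception in direction. It ran from 2579 to 10483 CPM (median 8296) in Cdx2-/- cecum and was at 38.4, 90.3 and 47.7 CPM in Apc+/- ileum, with a log2 fold change of 6.91 (SE 1.47, edgeR adjusted p = 0.00138), or 6.27 without set 1 replicates 2 and 3. Of 20 proliferation genes 10 were lower and 1 higher (median -0.60). Over wild-type cecum the median of these 20 was 1.10, against 0.04 over all genes. Mcm2 of the replicative helicase was at 32 to 50 CPM in Cdx2-/- cecum and 85.3, 76.6 and 98.3 CPM in Apc+/- ileum (log2 fold change -1.07, SE 0.18, edgeR adjusted p = 1.71e-04), and the mitotic kinase gene Plk1 at 130 to 177 CPM in Cdx2-/- cecum and 83.3, 79.5 and 102 CPM in Apc+/- ileum (log2 fold change 0.76, SE 0.17, edgeR adjusted p = 0.00226). Each pair was apart, in opposite directions, while Mki67 reached the ileal level (interval -0.57 to 0.46).

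Paneth cell genes were lower at 9 of 20 tested members and higher at none (median -2.51), and at 11 without set 1 replicates 2 and 3. Over wild-type cecum, however, the median log2 fold change of the 20 was 7.62, against 0.04 over all genes, with members called in both directions. Their summed level was 291 to 1632 CPM in Cdx2-/- cecum, 25.1 to 103 CPM in wild-type cecum and 2467 to 5311 CPM in Apc+/- ileum. Pla2g2a, a bactericidal phospholipase, ran from 1.4 to 51.3 CPM (median 3.7) in Cdx2-/- cecum and was at 444, 395 and 414 CPM in Apc+/- ileum. Replicate 6 alone exceeded 5 CPM among the mutant libraries, and the log2 fold change of -5.64 (SE 0.85, edgeR adjusted p = 6.22e-05) was -7.38 without it. Lysozyme (Lyz1) ran from 14 to 477 CPM (median 40.6) in Cdx2-/- cecum, with replicate 6 the highest, and was at 762, 2602 and 797 CPM in Apc+/- ileum. Its groups were apart, with a log2 fold change of -4.14 (SE 0.86, edgeR adjusted p = 0.00116), -5.28 without replicate 6 and -3.3 without ileum replicate 2, and set 2 alone gave no call (edgeR adjusted p = 0.0554). Habp2 was at 38.3 to 78.6 CPM in Cdx2-/- cecum and 249, 338 and 178 CPM in Apc+/- ileum, and only 0.327 CPM on average in wild-type cecum (log2 fold change -2.11, SE 0.33, edgeR adjusted p = 7.93e-05). The defensin gene Defa24 overlapped the ileum, at 27.8 to 383 CPM in Cdx2-/- cecum and 290, 526 and 247 CPM in Apc+/- ileum (log2 fold change -1.44, edgeR adjusted p = 0.143; 0.0256 without replicate 6), and so did Mmp7, the protease that activates defensins, at 66.5 to 551 CPM in Cdx2-/- cecum and 321, 287 and 258 CPM in Apc+/- ileum. Wild-type cecum held at most 0.874 CPM of Mmp7. Defensin genes are near-identical copies and their individual counts are uncertain.

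Genes of the gastric surface were mostly above the ileal level, with 10 of 16 tested members higher and 2 lower (median 3.07), or 9 and 2 without set 1 replicates 2 and 3. Tff2, a trefoil peptide of gastric mucus, ran from 394 to 2461 CPM (median 1556) in Cdx2-/- cecum and was at 1.29, 1.97 and 6.3 CPM in Apc+/- ileum. The groups were far apart (log2 fold change 8.85, SE 1.45, edgeR adjusted p = 1.33e-04; 9.83 without ileum replicate 3). Gkn1, gastrokine 1, ran from 689 to 12422 CPM (median 2600) in Cdx2-/- cecum, highest in set 1 replicates 2 and 3, and was at 9.22, 4.1 and 25.1 CPM in Apc+/- ileum. Its log2 fold change was 8.15 (SE 1.47, edgeR adjusted p = 3.28e-04), 7.32 without those 2 libraries and 9.1 without ileum replicate 3. Vsig1, a gastric junction protein, was at 182 to 299 CPM (median 253) in Cdx2-/- cecum and 26.7, 17.3 and 30.3 CPM in Apc+/- ileum, without overlap (log2 fold change 3.34, SE 0.51, edgeR adjusted p = 7.54e-05). Ctse, gastric cathepsin E, overlapped, at 347 to 1006 CPM in Cdx2-/- cecum and 473, 303 and 437 CPM in Apc+/- ileum, while wild-type cecum averaged 12.9 CPM. In the double mutants 2 of the 16 gastric surface genes were higher in cecum and 2 lower (median -0.82). These counts are near the shares of all tested genes in that pair (6.6% higher and 9.59% lower). Gkn1 was not called there, at 580, 1404 and 499 CPM in Cdx2-/-;Apc+/- cecum and 1953, 118 and 3750 CPM in Cdx2-/-;Apc+/- ileum (log2 fold change -1.23, edgeR adjusted p = 0.493). The gastric gland list, which holds acid and enzyme genes, had 1 of 11 members higher and 0 lower, or 0 of either without set 1 replicates 2 and 3.

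**Figure D5:**
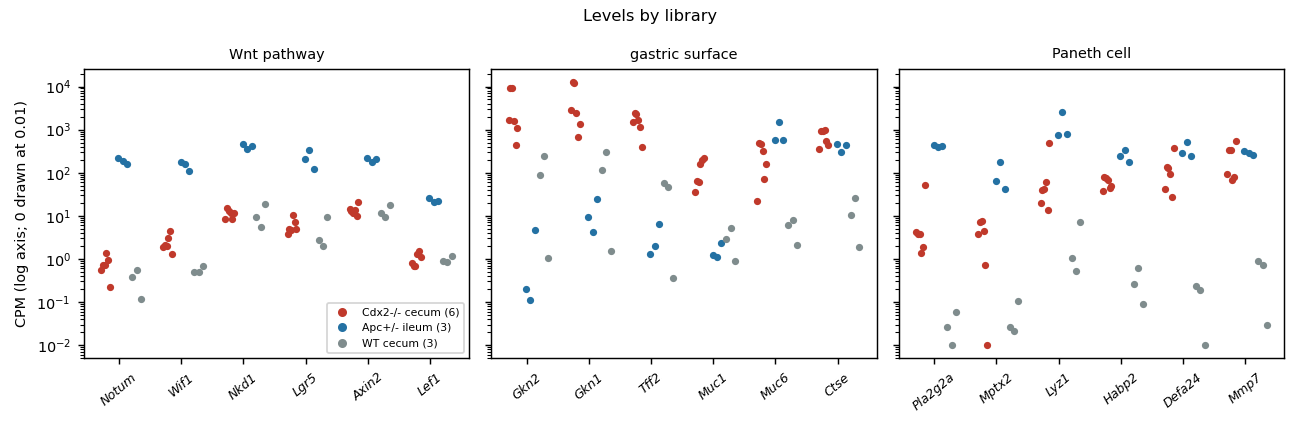
CPM (log axis, 0 drawn at 0.01) of Wnt pathway, gastric surface and Paneth cell genes in each Cdx2-/- cecum (red, 6), Apc+/- ileum (blue, 3) and wild-type cecum (grey, 3) library. Wnt genes are high in the ileum alone, Gkn2, Gkn1, Tff2 and Muc1 in the Cdx2-/- cecum, and Defa24, Mmp7 and Ctse overlap between the mutant cecum and the ileum.

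Among the largest changes of single genes that did not overlap between groups, the amino acid carrier gene Slc38a4 was at 0.239 to 0.773 CPM (median 0.405) in Cdx2-/- cecum and 614, 664 and 636 CPM in Apc+/- ileum (log2 fold change -10.57, SE 1.04, edgeR adjusted p = 8.52e-07). The double mutants differed in the same direction but with a spread, at 0.255, 4.42 and 63.2 CPM in Cdx2-/-;Apc+/- cecum and 228, 289 and 319 CPM in Cdx2-/-;Apc+/- ileum (log2 fold change -3.62, edgeR adjusted p = 0.0227). The zinc carrier gene Slc30a2 was at 0.123 to 1.38 CPM in Cdx2-/- cecum and 208, 389 and 201 CPM in Apc+/- ileum (log2 fold change -8.61, SE 0.77, edgeR adjusted p = 3.36e-07). Both were at ileal levels in no mutant library. Gip, the incretin hormone of proximal K cells, had 0 reads in all 6 Cdx2-/- libraries and 1.12, 1.69 and 3.18 CPM in Apc+/- ileum, which is at least 240-fold lower when the mutant group is set at 3 reads in all. In the other direction Sult1c2, a sulfotransferase, was at 290 to 406 CPM (median 329) in Cdx2-/- cecum and 2.01, 3.58 and 2.8 CPM in Apc+/- ileum. It was far apart and narrow within each group (log2 fold change 6.94, SE 0.69, edgeR adjusted p = 9.71e-07). Sftpd, surfactant protein D of mucosal defence, was at 31.1 to 147 CPM in Cdx2-/- cecum and at most 0.294 CPM in Apc+/- ileum (log2 fold change 9.67, SE 1.26, edgeR adjusted p = 1.52e-05; 11.77 without ileum replicate 3).

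Secreted defence proteins diverged member by member. Reg3b, a bactericidal lectin, was at 193 to 242 CPM (median 217) in Cdx2-/- cecum and 5035, 4512 and 2024 CPM in Apc+/- ileum, against 14.8 CPM on average in wild-type cecum. The mutant cecum was thus between the segments and apart from the ileum (log2 fold change -4.17, SE 0.84, edgeR adjusted p = 8.88e-04), whereas Reg3g overlapped it at 424 to 1759 CPM in Cdx2-/- cecum and 3397, 1943 and 1271 CPM in Apc+/- ileum (log2 fold change -1.14, edgeR adjusted p = 0.178; 0.0279 when only the 9 compared libraries were fitted). Dmbt1, a scavenger receptor of mucus, was at 20053 to 51653 CPM (median 22817) in Cdx2-/- cecum and 1651, 2371 and 1101 CPM in Apc+/- ileum. No library overlapped (log2 fold change 4.02, SE 0.60, edgeR adjusted p = 5.49e-05), and the double mutants differed likewise (log2 fold change 3.21, edgeR adjusted p = 0.00201). Goblet cell genes moved at few members, with 2 of 15 higher and 1 lower (median -0.12), no more than the shares of all tested genes (15.8% higher and 16.7% lower). Muc2 overlapped at 391 to 2590 CPM in Cdx2-/- cecum and 1765, 1592 and 1537 CPM in Apc+/- ileum. Enteroendocrine genes were lower at 6 of 17 members and higher at none (median -1.64), or 2 without set 1 replicates 2 and 3. Of 12 tuft cell genes 5 were higher and 1 lower, or 2 and 1 without those libraries and 2 and 0 without ileum replicate 1. Their master regulator Pou2f3 was higher by 2.18 (SE 0.42, edgeR adjusted p = 6.04e-04).

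Genes of the fetal-like and regenerative epithelium were higher at 9 of 18 members and lower at 1 (median 0.77), or 8 and 1 without set 1 replicates 2 and 3 and 5 and 1 without ileum replicate 1. Clu, clusterin, ran from 4785 to 19236 CPM (median 13303) in Cdx2-/- cecum and was at 3314, 1326 and 2956 CPM in Apc+/- ileum, while wild-type cecum averaged 70.3 CPM. It is an ileum-enriched gene that the mutant cecum exceeded (log2 fold change 2.35, SE 0.48, edgeR adjusted p = 9.45e-04). Anxa3 was higher by 2.00 (SE 0.29, edgeR adjusted p = 3.82e-05). Among xenobiotic response genes 3 of 15 were higher and 5 lower (median 0.16), or 3 and 3 without set 1 replicates 2 and 3. Nqo1, a target of the aryl hydrocarbon receptor that beta-naphthoflavone activates, was at 220 to 398 CPM in Cdx2-/- cecum and 12.6, 13.6 and 11.1 CPM in Apc+/- ileum (log2 fold change 4.53, SE 0.56, edgeR adjusted p = 8.43e-06), but untreated wild-type cecum already averaged 111 ± 7.54 CPM (SD, n = 3). The part of the drug treatment in this difference was not tested.

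Markers of other cell types differed at some members, where 15.8% of all tested genes were higher and 16.7% lower. Smooth muscle genes were higher at 5 of 13 members and lower at none (median 1.23, summed level 1783 to 3834 CPM in Cdx2-/- cecum and 835 to 1208 CPM in Apc+/- ileum), or 3 without set 1 replicates 2 and 3. Enteric nerve and glial genes were higher at 4 of 14 and lower at none (median 1.40, summed level 61.2 to 154 CPM in Cdx2-/- cecum and 54.6 to 56.3 CPM in Apc+/- ileum), or 3 without those libraries. Mast cell genes were higher at 3 of 10 (summed level 69 to 408 CPM in Cdx2-/- cecum and 39.4 to 92.4 CPM in Apc+/- ileum), or 2 without those libraries. Pancreatic acinar genes were higher at 3 of 8 and lower at 1, or 2 and 1 without them. Their summed level was nevertheless lower at the median, at 163 to 1216 CPM (median 341) in Cdx2-/- cecum and 742 to 951 CPM (median 895) in Apc+/- ileum. T cell genes were lower at 3 of 12 and higher at none (summed level 15.8 to 40.9 CPM in Cdx2-/- cecum and 38.4 to 63.7 CPM in Apc+/- ileum). MHC class II genes were lower at 4 of 11 (summed level 220 to 672 CPM in Cdx2-/- cecum and 492 to 1485 CPM in Apc+/- ileum), but at 0 without those libraries and at 0 without ileum replicate 1. Their part in the epithelial differences was not tested.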

How the data were processed

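RNA of the 24 libraries was sequenced after Trizol extraction and a TruSeq mRNA preparation, per the labels' protocols. The deposited values are raw read counts per gene for each library, and the submitters' processing notes name CASAVA, TopHat2 2.0.11, HTSeq 0.5.3p3 and GRCm38; neither the annotation release nor the strand setting of the counting is stated there. Of 39179 gene IDs, 37607 matched a symbol and held 99.78% of the reads, and the 5 summary entries that name no gene were left out. The counts were fitted with edgeR 4.0.16 (R 4.3.3) over all 24 libraries in 8 groups of 3, after filterByExpr and TMM normalisation, with quasi-likelihood F tests, Benjamini-Hochberg adjustment and a threshold of 0.05. The Cdx2-/- cecum is the average of its 2 sets. Standard errors are the log2 fold change over the square root of F. CPM values are unlogged; the ileal index used log2 CPM with a prior count of 2. DESeq2 1.42.0 was an alternative. The fit was tested on simulated data. The members and gene lists were chosen with earlier results of these data known. Genes were named from those lists, from Cdx2, Cdx1, Apc and Cyp1a1, and from the 10 largest non-overlapping called changes each way with at least 10 CPM, together with the most abundant lacked, reached and exceeded ileum-enriched genes. Other choices tried were the scaling, the filter, the libraries fitted, each library left out, and the limits of the enriched classes. Some genes are not reported here.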

Additional observations from a re-analysis of the deposited data

Results flagged for a closer look

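Within the 6 Cdx2-/- libraries, some genes had 1 library whose gap to its nearest neighbour on the log2 CPM scale took up most of the range of the group, and the share of the range is given for each. Of the genes named in the text or plotted, 114 were tested for differences and screened in this way, and chance gives such a gap in about 1 in 20 groups of libraries. Replicate 4 was the highest for 5 genes of enterocytes. The gap was 0.651 of the range for Anpep (278 CPM), 0.668 for the peptidase gene Dpp4 (79.2 CPM), 0.681 for the fatty acid binding protein gene Fabp1 (0.806 CPM), 0.859 for Hnf4g (15 CPM) and 1.000 for the sphingomyelinase gene Enpp7 (0.192 CPM). Replicate 5 was the lowest for Abcg8 (0.668 of the range, 0.225 CPM) and for the cystine carrier gene Slc7a9 (0.667 of the range, 0.716 CPM). Replicate 6 was the highest for Pla2g2a (0.701 of the range, 51.3 CPM) and the lowest for Sftpd (0.678 of the range, 31.1 CPM) and Slc46a1 (0.746 of the range, 2.42 CPM).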

How the results depend on the processing

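Each gene count over all tested genes stayed within 1.5 times its value. Genes higher in Cdx2-/- cecum numbered 3014 with RLE scaling, 3427 with DESeq2 and 2287 to 3210 with 1 library left out, and genes lower 3614, 3829 and 2517 to 3308. With the 6 Cdx2-/- libraries fitted as 1 group, so that the difference between the sets counts as spread, 3036 were higher and 2965 lower. Equal replicate numbers do not pair these samples (r of deviations 0.0564, 0.0781 and -0.1013 for numbers 1 to 3), and set 1 alone with the replicate block gave 3536 higher and 3275 lower. The classes of enriched genes depended more on their limits, in part because the limits set how many genes enter. With an enrichment limit of 1, 1027 ileum-enriched genes were reached, 403 exceeded and 1698 unresolved, and of the cecum-enriched genes 127 were lacked, 1282 reached, 412 exceeded and 1229 unresolved. With a limit of 3 these counts were 46, 174 and 516, and 20, 36, 108 and 309. Bounds of -1.5 to 1.5 gave 535 reached and 622 unresolved ileum-enriched genes and 429 reached and 424 unresolved cecum-enriched genes. Set 1 alone gave 121 reached ileum-enriched genes, and set 2 alone 41 lacked cecum-enriched genes. Choosing the genes from Apc+/- ileum, which shares libraries with the comparison, gave 113 exceeded ileum-enriched genes and 46 lacked and 384 exceeded cecum-enriched genes. Leaving out set 1 replicates 2 and 3 gave 117 reached ileum-enriched and 27 lacked cecum-enriched genes. With 1 library left out, reached ileum-enriched genes ran from 122 to 232, lacked cecum-enriched genes from 47 to 187 and reached cecum-enriched genes from 151 to 373. The ileal index with a limit of 3 was -0.52 in Cdx2-/- cecum and 1.07 in Apc+/- ileum. The omissions of set 1 replicates 2 and 3 together, and of replicate 2 of the Cdx2-/-;Apc+/- ileum, were chosen after seeing the data, and the cause of these changes was not tested.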
